A study of Mus musculus with 6 samples.

Results

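The MuvB and DREAM genes are 10 genes whose products form, or work with, the cell cycle complexes that RBBP4 itself enters. They were taken by name: Lin9, Lin37, Lin52 and Lin54 of the MuvB core, E2f4, Rbl1, Rbl2 and Tfdp1 of the repressive DREAM form, and Mybl2 and Foxm1 of the activating forms. All 10 were found among the 55401 genes of each table, and all 10 were among the 14156 genes that reached a mean of 0.5 TPM and were tested. Expression was measured by poly(A) RNA-seq in 6 libraries of 46C cells, a mouse embryonic stem cell (mESC) line grown in serum with LIF, Chir99021 and PD0325901. By the study's methods for these biotin-tagged lines, the cells carried a lentiviral BirA biotin ligase. By the genotype labels, the control cells stably expressed the biotin tag alone, the Rbbp4 OE cells biotin-tagged Rbbp4, and the Rbbp7 OE cells biotin-tagged Rbbp7, with 2 libraries in each group and no other treatment. Each construct was delivered by its own lentivirus followed by drug selection, so an effect of the tagged protein and an effect of the infected and selected line cannot be told apart.

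MuvB is a stable core of LIN9, LIN37, LIN52, LIN54 and RBBP4 that is kept through the cell cycle while its partners change. In quiescent and G1 cells it joins the pocket proteins p107 (Rbl1) and p130 (Rbl2) and the E2F4-DP1 heterodimer to form DREAM, which represses cell cycle genes. E2F4-DP1 reads E2F elements, found at many genes of the G1/S transition, and LIN54 reads the CHR element, found at many genes of G2 and mitosis. In proliferating cells the same core binds B-MYB (Mybl2) and then FOXM1 and activates the late genes. RBBP4 is a WD40 histone chaperone, and RBBP7 is its close homolog.

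TPM, a measure scaled for transcript length and library total, divides each estimate by length, so that levels of different genes can be set beside each other. It keeps no sequencing depth, and the depth is therefore unknown. Rbbp4 stood at 146 and 147 TPM in the control libraries, 269.97 and 271 in those of Rbbp4 OE, and 144 and 143 in those of Rbbp7 OE. Rbbp7 stood at 239 and 237 TPM in the control libraries, 208 and 217 in those of Rbbp4 OE, and 725 and 748 in those of Rbbp7 OE. Each construct's gene was thus highest in the libraries labelled with it, and vector-derived and endogenous transcripts cannot be told apart in these values. The 6 stem cell markers Pou5f1, Nanog, Sox2, Esrrb, Zfp42 and Klf4 summed to between 3253 and 3502 TPM in every library. Within this sum Pou5f1 rose by 0.25 on the log2 scale in Rbbp4 OE and Nanog fell by 0.23 (limma adjusted p = 0.0334 and 0.0393), and Klf4 was at -0.45 (limma adjusted p = 0.0969). The 12 markers of fibroblast, trophoblast, endoderm, neural and mesoderm cells summed to 18.0 and 20.6 TPM in control against 23.97 to 28.25 TPM in Rbbp4 OE and 27.4 to 29.2 TPM in Rbbp7 OE. In each library 6 or 7 of the 12 were under 1 TPM, and Thy1, a fibroblast marker of the list, rose by 0.96 in Rbbp4 OE (limma adjusted p = 0.0192). The fibroblast marker Col1a1 did not rise with it (-0.07, limma adjusted p = 0.872), and Col1a2 was too low to be tested. Of the trophoblast markers, Cdx2 was at -0.52 and Eomes at 0.41 in the same comparison (limma adjusted p = 0.1025 and 0.0822). The part of the markers in the results below was not tested.

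The 10 genes covered a wide range of levels. Mybl2 was the most abundant, with a mean of 430.6 TPM over the 6 libraries and the 97.75th percentile of the tested genes. E2f4 followed at 170.3 TPM and Tfdp1, which encodes the DP1 partner of E2F proteins, at 103 TPM. The ranges of these 3 genes over the 6 libraries did not overlap each other. Lin37 and Foxm1 came next at 45.2 and 35.2 TPM, with overlapping ranges. Rbl1, Lin52, Lin54 and Lin9 lay together at 8.08, 7.42, 7.40 and 7.16 TPM, each overlapping the next in order, and Rbl2 was lowest at 3.43 TPM and below the range of Lin9. Subunits of the same core therefore differed in transcript level, with the mean TPM of Lin37 being 6.08 to 6.30 times those of Lin9, Lin52 and Lin54. Between replicates the members differed by a median of 0.186 log2 units in control, 0.0847 in Rbbp4 OE and 0.114 in Rbbp7 OE. The corresponding medians over all tested genes were 0.178, 0.121 and 0.123. The widest replicate gap in control was that of Lin52, at 0.57 log2 units.

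**Figure D1:**
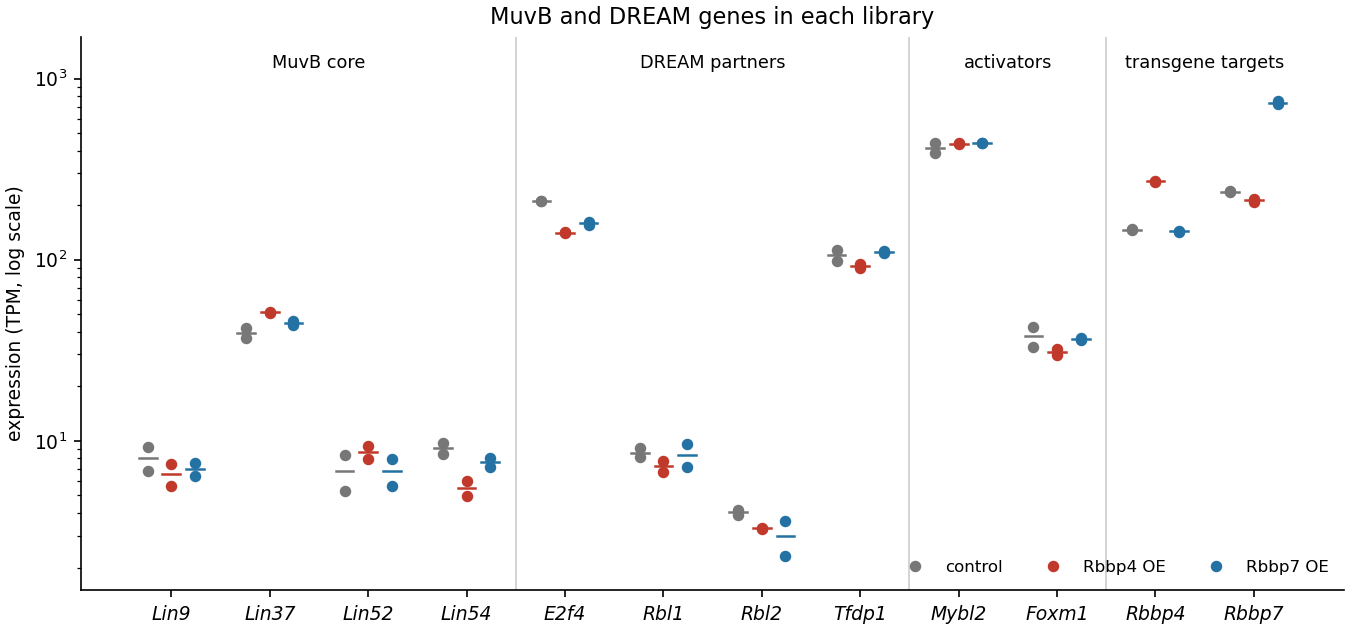
Expression of the 10 genes and of Rbbp4 and Rbbp7 in TPM on a log axis, with a point for each of the 6 libraries and a bar at each group mean (n = 2 libraries). E2f4 shows tight pairs of points with both overexpression groups below control, and Lin54 is lowest in Rbbp4 OE. Mybl2 lies between 390.5 and 440.1 TPM, with control replicate 1 the lowest.

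Promoter windows from RefSeq on GRCm38.p6, reaching from 250 bases before to 50 bases after each annotated start, covered 7 of the 10 genes in 9 windows. Lin9, E2f4 and Foxm1 had no window. The windows were searched on both strands for the E2F words TTTCCCGC, TTTCGCGC, TTTGCCGC, TTTGGCGC and TTGGCGGG, and for the CHR words TTTGAA and TTCGAA. An E2F word was present in 6 of the 9 windows (66.7%), against 3.17% of all 32851 windows, and a CHR word in 4 of the 9 (44.4%) against 19.2%. The 2 windows of Tfdp1 overlap and hold the same E2F word. Counted by gene, 5 of 7 held an E2F word, against 976 of 27025 genes. A CHR word was held by 3 of 7, against 5854 of 27025. Rbl1, Tfdp1, Mybl2, Lin52 and Lin54 held an E2F word. Lin37 and Rbl2 held a CHR word alone, 197 and 201 bases before the start. The sequences below show where the E2F words lay before the start. Each reads 5′ to 3′ on the strand of the gene, with the searched words in capitals.
Rbl1 (chr2:157204535-157204594, minus strand): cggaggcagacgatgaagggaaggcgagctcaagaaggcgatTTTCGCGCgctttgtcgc
Mybl2 (chr2:163054575-163054634, plus strand): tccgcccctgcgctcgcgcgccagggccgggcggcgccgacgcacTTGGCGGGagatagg
Tfdp1 (chr8:13338682-13338741, plus strand): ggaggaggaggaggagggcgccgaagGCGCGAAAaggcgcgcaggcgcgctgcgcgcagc
Lin52 (chr12:84451470-84451499, plus strand): cggatcctcgcTTTCCCGCcgacggttggt
Lin54 (chr5:100498694-100498753, minus strand): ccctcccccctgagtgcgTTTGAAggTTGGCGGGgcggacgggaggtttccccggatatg
The words began 18 bases before the start in Rbl1, 15 in Mybl2 and 27 in Lin52. In Tfdp1 the same word lay 43 or 96 bases before, depending on which of its 2 annotated starts is used. In Lin54 the stretch belongs to the downstream of its 2 starts and lies within an intron of the longer form. It holds a CHR word and an E2F word separated by 2 bases, which begin 162 and 154 bases before that start. The Lin52 stretch lies within an annotated untranslated exon of Lin52. A matching word is a description of the sequence and does not show that a factor binds there.

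The effect of Rbbp4 overexpression on its own complex genes was examined first. In Rbbp4 OE against control, 3 of the 10 genes passed an adjusted p under 0.05 in limma: E2f4 and Lin54 fell and Lin37 rose. Over all tested genes 1609 passed, or 11.4%, of which 466 rose (3.29%) and 1143 fell (8.07%). With median-of-ratios scaling in place of the TPM scale, 716 rose and 712 fell, and the median log2 difference of all genes moved from -0.08 to 0.01. None of the 10 met the study's own thresholds of an adjusted p under 0.01 and a fold over 2, which 0.516% of all genes did.

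E2f4 (ENSMUSG00000014859.9, chromosome 8, 105297663 to 105305370), the main E2F of DREAM, had 211 TPM in both control libraries. Its levels were 141 and 140.3 TPM with Rbbp4 OE, and 156 and 162 TPM with Rbbp7 OE. The 3 groups did not overlap, control was highest and Rbbp4 OE lowest, and replicates lay within 5.60 TPM of each other. In Rbbp4 OE its mean TPM was 33.3% below control, a log2 difference of -0.58 (SE 0.049, 95% interval -0.70 to -0.46, limma adjusted p = 0.00552). The fall ranged from 0.47 to 0.72 on the log2 scale over 17 alternative settings (other pseudocounts, filters, scalings and fits, and leaving out each library in turn) and passed in 16 of them. The exception was the fit without Rbbp4 OE replicate 2 (-0.57, limma adjusted p = 0.0853).

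Lin54 (ENSMUSG00000035310.15, chromosome 5, 100441918 to 100500639), the DNA-binding subunit of MuvB, had 8.44 and 9.76 TPM in control. Rbbp4 OE had 6.0 and 4.94 TPM and Rbbp7 OE 8.08 and 7.17 TPM. Control was again highest and Rbbp4 OE lowest, with no overlap between groups. In Rbbp4 OE the log2 difference from control was -0.64 (SE 0.15, 95% interval -1.01 to -0.28, limma adjusted p = 0.0472). This call was close to the limit: it passed in 4 of 17 settings, and without any 1 of the 6 libraries the adjusted p lay between 0.0688 (without control replicate 1) and 0.2296 (without Rbbp4 OE replicate 2), at log2 fold changes of -0.76 to -0.53.

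Lin37 (ENSMUSG00000036845.12, chromosome 7, 30555441 to 30559838), a core subunit required for repression by DREAM, moved the other way. It had 42.2 and 37.0 TPM in the control libraries, 51.2 and 51.1 in those of Rbbp4 OE, and 45.9 and 43.5 in those of Rbbp7 OE. The Rbbp4 OE libraries were highest and control lowest, with no overlap between groups. In Rbbp4 OE the log2 difference from control was 0.36 (SE 0.086, 95% interval 0.15 to 0.57, limma adjusted p = 0.0481). It passed in 7 of 17 settings, and of the fits that left out a library only that without control replicate 1 passed (0.46, limma adjusted p = 0.0363). The other 5 such fits gave log2 fold changes of 0.27 to 0.37 and limma adjusted p values up to 0.2102, the highest of them without Rbbp4 OE replicate 2. After the GC and length correction it was 0.22 (limma adjusted p = 0.101).

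The other MuvB subunits did not pass. Lin9 (chromosome 1) had 6.79 and 9.21 TPM in the control libraries, 5.62 and 7.44 in those of Rbbp4 OE, and 6.38 and 7.55 in those of Rbbp7 OE. All 3 groups overlapped, and the interval of its log2 difference in Rbbp4 OE was -0.74 to 0.23. Lin52 (chromosome 12), the subunit whose phosphorylation by DYRK1A joins the core to the pocket proteins, had 5.32 and 8.37 TPM in the control libraries, 9.34 and 7.92 in those of Rbbp4 OE, and 7.93 and 5.66 in those of Rbbp7 OE. Its groups overlapped as well, with an interval of -0.27 to 0.91 in Rbbp4 OE, so that an increase of up to 0.91 log2 units lay within it.

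The pocket proteins were expressed at low levels. Rbl1, encoding p107, had 8.15 and 9.10 TPM in the control libraries, 7.75 and 6.71 in those of Rbbp4 OE, and 9.65 and 7.14 in those of Rbbp7 OE. Rbl2, encoding p130, had 3.92 and 4.17 TPM in the control libraries, 3.28 and 3.29 in those of Rbbp4 OE, and 3.62 and 2.32 in those of Rbbp7 OE. For both genes the Rbbp4 OE libraries lay under the controls without overlap, but the log2 differences of -0.23 and -0.24 did not pass (limma adjusted p = 0.422 and 0.481). Exons of Rbl2 share 693 bases with Aktip on the opposite strand, and whether strand was used in the counting is not given in the sources used here.

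Tfdp1 had 98.6 and 113 TPM in the control libraries, 90.2 and 94.5 in those of Rbbp4 OE, and 111 and 108 in those of Rbbp7 OE. Its Rbbp4 OE libraries were the lowest of the 6, and the log2 difference from control was -0.19 (95% interval -0.38 to 0.0017, limma adjusted p = 0.172). This value was -0.29 and -0.09 without control replicates 1 and 2, -0.08 with median-of-ratios scaling, and -0.12 and -0.13 with quantile normalization and the GC and length correction. Of the DREAM partners, E2f4 alone passed, and all 4 had both Rbbp4 OE libraries below both controls. Among all tested genes, 37.1% had their Rbbp4 OE libraries below control in this way. E2f4, Rbl2 and Tfdp1 all lie on chromosome 8, and Rbl1 lies on chromosome 2.

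The activators did not pass either. Mybl2, encoding B-MYB, had 390.5 and 439 TPM in the control libraries, 437 and 438 in those of Rbbp4 OE, and 439.7 and 440.1 in those of Rbbp7 OE. Control replicate 1 was the lowest library and the other 5 lay within 3.45 TPM of each other. Its log2 difference in Rbbp4 OE was 0.08, with an interval of -0.07 to 0.23. Foxm1 had 32.9 and 42.6 TPM in the control libraries, 32.2 and 29.9 in those of Rbbp4 OE, and 36.3 and 37.0 in those of Rbbp7 OE. Its exons share 144 bases with Tex52 and 97 with Gm44596 on the same strand. Control replicate 1 lay close to the Rbbp4 OE libraries and control replicate 2 well above them, and the log2 difference of -0.26 (limma adjusted p = 0.238) passed in 1 of 17 settings, the fit without control replicate 1 (-0.44, limma adjusted p = 0.0453). In all, 7 of the 10 genes had non-overlapping Rbbp4 OE and control libraries, 1 higher and 6 lower, against a background of 57.9% of all genes, 20.8% higher and 37.1% lower. The median log2 difference of the 10 genes was -0.23, beside -0.08 over all genes. It was -0.09 without control replicate 2, -0.10 after the GC and length correction, -0.14 with median-of-ratios scaling and -0.12 with quantile normalization.

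**Figure D2:**
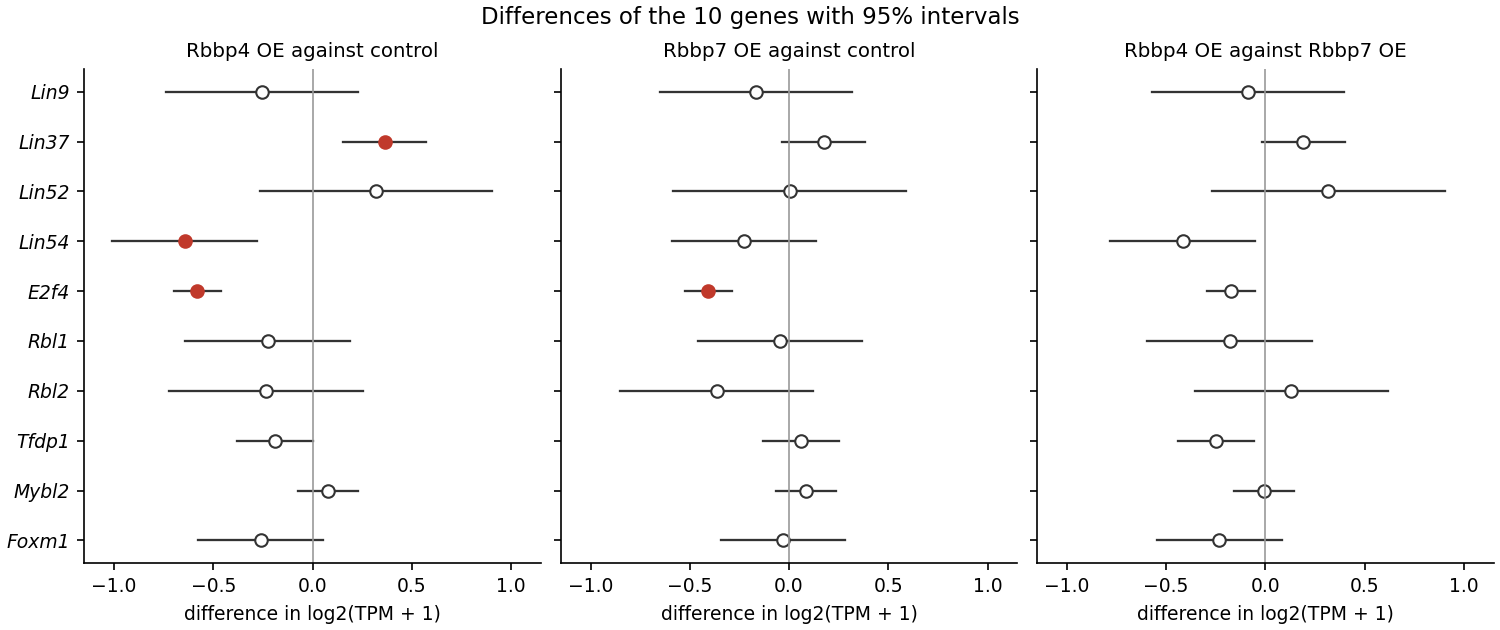
Difference in log2(TPM + 1) of each of the 10 genes in the 3 comparisons, with 95% intervals from the limma fit over all genes; filled points passed an adjusted p under 0.05. E2f4 lies below 0 in both comparisons with control (-0.58 and -0.41), Lin54 and Lin37 pass in Rbbp4 OE alone, and no gene passes between the overexpression lines.

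In Rbbp7 OE, whose protein is the homolog of the MuvB subunit RBBP4, 1 of the 10 genes passed against control. E2f4 fell by 24.7% in mean TPM, a log2 difference of -0.41 (SE 0.049, 95% interval -0.53 to -0.29, limma adjusted p = 0.0426). Over all genes 69 passed, or 0.487%, with 0.198% rising and 0.290% falling. The size of the E2f4 fall was stable, between 0.38 and 0.46 over 17 settings, but it passed in only 7 of them. The number of calls over all genes fell as well in several of these settings. Without any 1 of the 6 libraries it did not pass: the limma adjusted p was 0.126 and 0.129 without control replicates 1 and 2, 0.218 and 0.217 without Rbbp4 OE replicates 1 and 2, and 0.2995 and 0.119 without Rbbp7 OE replicates 1 and 2. This comparison and that of Rbbp4 OE share the same 2 control libraries, so the falls of E2f4 in both are not independent of each other.

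The other 9 genes did not pass in Rbbp7 OE. Lin54 was at -0.23 on the log2 scale (95% interval -0.59 to 0.14) and Lin37 at 0.17 (-0.04 to 0.38), each with libraries that did not overlap control. Rbl2 was at -0.36 (-0.85 to 0.12), and at -0.60 and -0.13 without Rbbp7 OE replicates 1 and 2. Lin9, Lin52, Rbl1, Tfdp1 and Foxm1 overlapped control, with log2 differences between -0.17 and 0.06. Mybl2 was at 0.09 (-0.06 to 0.24). Non-overlapping libraries were seen for 5 of the 10 genes, 2 higher and 3 lower, against 44.5% of all genes, 21.2% higher and 23.4% lower. The median over the 10 genes was -0.04, beside 0.00 over all genes, and it ran from -0.25 to 0.055 without control replicates 1 and 2.

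The overexpression lines were then compared directly. None of the 10 genes passed in Rbbp4 OE against Rbbp7 OE with limma, where 43 of all genes did (0.304%), and 2685 genes had an unadjusted p under 0.05. The difference of E2f4 was -0.17 on the log2 scale (95% interval -0.29 to -0.05, limma adjusted p = 0.165), so E2f4 was not shown to fall further with Rbbp4 than with Rbbp7. Lin54 was at -0.42 (95% interval -0.78 to -0.05, limma adjusted p = 0.221) and Tfdp1 at -0.25 (95% interval -0.44 to -0.06, limma adjusted p = 0.187). For these 3 genes both Rbbp4 OE libraries lay below both Rbbp7 OE libraries. For Lin37 the difference was 0.19 (95% interval -0.02 to 0.40), for Foxm1 -0.23 (-0.55 to 0.08), and for Mybl2 -0.01 (-0.16 to 0.14). For Rbl1, Rbl2, Lin9 and Lin52 the intervals were wide, spanning at least 0.83 log2 units. In this comparison 6 of the 10 genes had non-overlapping libraries, 1 higher and 5 lower, against 54.7% of all genes, 16.1% higher and 38.6% lower.

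**Figure D3:**
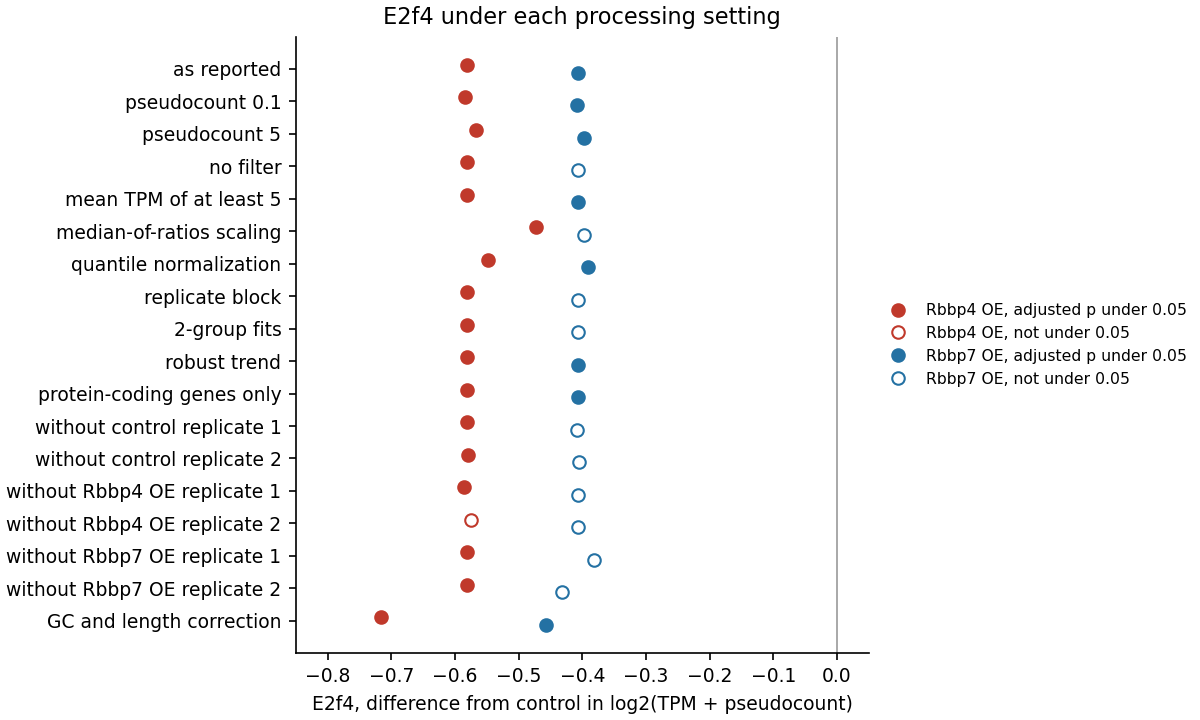
Log2 difference of E2f4 from control in Rbbp4 OE (red) and Rbbp7 OE (blue) under each processing setting, with filled points for a limma adjusted p under 0.05. The Rbbp4 OE points run from -0.72 to -0.47 and all but 1 are filled. The Rbbp7 OE points run from -0.46 to -0.38. Open Rbbp7 OE points are the fits without a library, no filter, median-of-ratios scaling, the replicate block and 2-group fits.

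The other genes of the pathway were described from lists of relatives, upstream regulators and known targets. None of the 10 further E2F, RB, DP and MYB family genes (E2f1, E2f2, E2f3, E2f5 to E2f8, Rb1, Tfdp2 and Mybl1) passed in any of the 3 comparisons, where 11.4%, 0.487% and 0.304% of all genes did. Their median was -0.11 in Rbbp4 OE, -0.27 without control replicate 1 and -0.03 with median-of-ratios scaling, beside -0.08 over all genes. At an unadjusted level the same fits held 4187, 2180 and 2685 genes with p under 0.05. E2f4 was the most abundant E2F of the cells: the next, E2f1, ranged from 28.7 to 34.3 TPM. Rb1, the founding pocket protein, ranged from 1.58 to 2.02 TPM, below Rbl2 in every library.

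Of the 13 kinases, D cyclins and inhibitors that set DREAM assembly, 12 were tested, and 2 fell in Rbbp4 OE (16.7%) with none rising, beside 8.07% of all genes falling. None passed in Rbbp7 OE or between the lines, beside 0.487% and 0.304% of all genes. With 12 genes these counts lie near the background and are not a result about the list. Cdkn1b, encoding the CDK inhibitor p27, had 22.4 and 29.2 TPM in the control libraries, 12.7 and 14.3 in those of Rbbp4 OE, and 19.1 and 22.0 in those of Rbbp7 OE. In Rbbp4 OE it differed from control by -0.88 log2 units (SE 0.15, limma adjusted p = 0.0231). Ccnd1, encoding the cyclin D1 that activates CDK4 and CDK6 toward pocket proteins, fell by 0.47 (SE 0.084, limma adjusted p = 0.0246), from 47.9 and 52.8 TPM to 36.2 and 35.8 TPM. Exons of Ccnd1 share 1100 bases with LTO1 on the opposite strand. Cdkn1b passed in 10 of 17 settings and Ccnd1 in 9. Dyrk1a, the kinase that acts on LIN52, overlapped between the groups, with 17.1 and 19.9 TPM in the controls beside 17.8 and 17.5 in Rbbp4 OE. The count of 2 in Rbbp4 OE depended on which libraries were in the fit, as did the calls over all genes. The median of the list was -0.15, and -0.17 and -0.07 without control replicates 1 and 2.

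Of the 25 G1/S targets, 9 fell in Rbbp4 OE and none rose (36.0%, against 8.07% of all genes falling), and 22 of the 25 had a difference below 0, as did 59.3% of all genes. The median was -0.25, and -0.14 with median-of-ratios scaling. Ccne2, encoding cyclin E2, had 8.18 and 12 TPM in the control libraries, 1.49 and 1.62 in those of Rbbp4 OE, and 5.17 and 4.77 in those of Rbbp7 OE. Its fall in Rbbp4 OE was the largest of the list, with a log2 difference of -2.10 (SE 0.20, limma adjusted p = 0.00679). Ccne2 also met the study's own thresholds. It passed in 13 of 17 settings, at log2 differences of -2.60 to -1.19. Exons of Ccne2 share 609 bases with Ints8 on the opposite strand.

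Chek1, the replication checkpoint kinase, fell by 0.56 on the log2 scale (limma adjusted p = 0.0218), from 32.7 and 31.5 TPM to 20.3 and 22.5 TPM. Mcm6, a subunit of the replicative helicase, fell by 0.53 (limma adjusted p = 0.0181), from 235 and 238 TPM to 157 and 169 TPM. Chek1 passed in 9 of 17 settings and Mcm6 in 10. Cdt1, Mcm4, Rrm2 and Mcm5, named after their values were seen, fell by 0.43, 0.41, 0.39 and 0.26. In Rbbp7 OE none of the 25 passed, against 0.487% of all genes, with a median of -0.11 beside 0.00. Ccne2 was at -0.87 there (limma adjusted p = 0.146). Its direct difference between the lines did not pass (-1.22, limma adjusted p = 0.0950). In bulk RNA, fewer cells in a phase of the cycle and less RNA in each cell cannot be told apart. The count of 9 depended on which libraries were in the fit, as did the calls over all genes. The median of the list was -0.31 and -0.18 without control replicates 1 and 2. It was -0.25 without Rbbp4 OE replicate 1 and also without Rbbp4 OE replicate 2.

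Of the 30 G2/M targets, 3 fell and 2 rose in Rbbp4 OE (16.7%, against 11.4% of all genes). With 30 genes this share lies near the background and is not a result about the list. A difference below 0 was seen for 20 of the 30, and for 8352 of all 14156 genes. The median was -0.10, and it became 0.0047 with median-of-ratios scaling and -0.01 without control replicate 2. Ect2, a guanine nucleotide exchange factor of cytokinesis, fell by 0.62 (limma adjusted p = 0.0220) and Bub1, a spindle checkpoint kinase, by 0.58 (limma adjusted p = 0.0140). Ccna2, encoding cyclin A2, fell by 0.35 (limma adjusted p = 0.0478). Plk1, the mitotic polo kinase, rose by 0.40 (limma adjusted p = 0.0217), from 208 and 235 TPM to 293 and 289 TPM. Ube2c, the ubiquitin-conjugating enzyme of the anaphase-promoting complex, rose by 0.20 (limma adjusted p = 0.0346). Exons of Ccna2, Plk1 and Ube2c overlap those of Exosc9, Gm44985 and Tnnc2. Ccna2 passed in 5 of 17 settings, Ube2c in 7, Ect2 and Plk1 in 10 each, and Bub1 in 11. None of the 30 passed in Rbbp7 OE or between the lines, where 0.487% and 0.304% of all genes did. The count in Rbbp4 OE depended on which libraries were in the fit, as did the calls over all genes. Without control replicate 1 the median was -0.17.

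**Figure D4:**
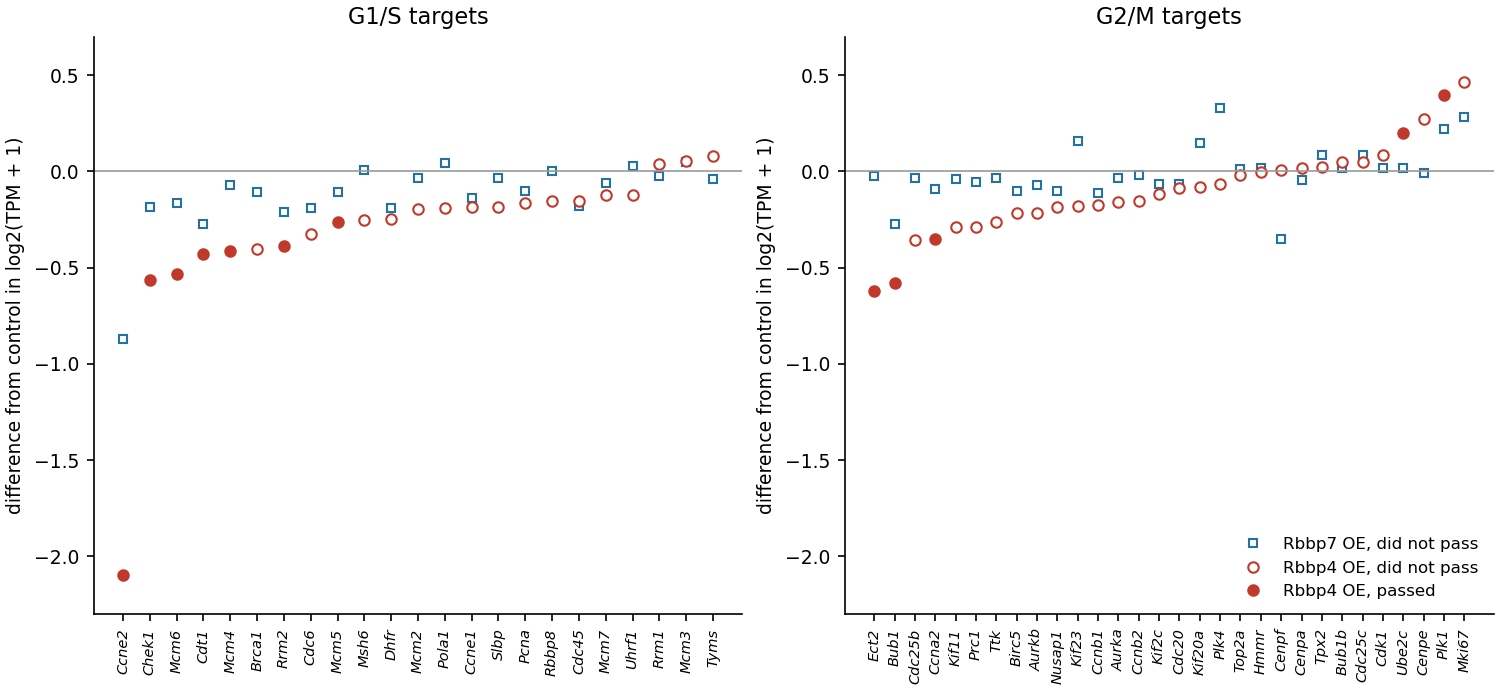
Difference from control in log2(TPM + 1) of 23 of the 25 G1/S targets (left) and 30 G2/M targets (right) in Rbbp4 OE (red circles, filled where the adjusted p was under 0.05) and Rbbp7 OE (blue squares, none passed), ordered by the Rbbp4 OE value. In the G1/S panel 20 of 23 red points lie below 0, led by Ccne2, and in the G2/M panel 20 of 30 do.

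The target lists differed in their promoter words. An E2F word stood in 11 of 21 windows of G1/S targets (52.4%) and 1 of 27 windows of G2/M targets (3.70%), against 3.17% of all windows. A CHR word stood in 3 of 21 G1/S windows (14.3%) and 22 of 27 G2/M windows (81.5%), against 19.2%. Of the 9 G1/S targets that fell, 5 had a window, and 4 of these held an E2F word. Over the whole list 11 of the 19 genes with a window held one, so most G1/S targets with an E2F word did not pass. The targets that fell are illustrated by stretches of Mcm6 and Mcm5 with E2F words and of Ect2 with a CHR word. The G2/M targets that rose, Plk1 and Ube2c, hold CHR words too.
Mcm6 (chr1:128359719-128359778, minus strand): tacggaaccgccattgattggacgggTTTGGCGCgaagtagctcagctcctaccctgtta
Mcm5 (chr8:75109334-75109393, plus strand): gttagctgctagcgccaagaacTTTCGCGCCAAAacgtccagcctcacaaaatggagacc
Ect2 (chr3:27153960-27154019, minus strand): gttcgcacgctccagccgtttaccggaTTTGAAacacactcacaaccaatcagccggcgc
In Mcm5 an E2F word on each strand overlap within 12 bases. In Mcm6 the word shown begins 47 bases before the start and others begin 106 and 110 bases before it. The Rbl1 and Mybl2 promoters hold E2F words as Mcm6 and Mcm5 do, while their transcripts did not pass in Rbbp4 OE.

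Finally, the genes whose profile over the 6 libraries was most like that of each role group were found among 9035 genes with a mean of at least 5 TPM. For the mean of E2f4, Rbl1, Rbl2 and Tfdp1 they were Fmnl3, Dpy19l1 and Ctsl (Pearson r = 0.996, 0.996 and 0.994). For the MuvB core they were Ppp1r15b, Prcp and Ndufa5 (r = 0.987, 0.974 and 0.971), and for Mybl2 and Foxm1 they were Dvl3, Arid2 and Ip6k1 (r = 0.993, 0.992 and 0.992). These values describe 6 libraries that share their scaling, they were picked as the highest of 9035, and no test is attached to them.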

How the data were processed

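Poly(A) RNA-seq of 6 libraries in 3 groups was analysed. By the study's methods, the authors trimmed reads with Trim_galore, aligned them to mm10 with STAR and ran RSEM. The deposited files hold 1 TPM value per gene and library, for 55401 genes, so depth is unknown. Groups came from the sample labels, which do not say whether replicates were separate cultures, so p-values may measure technical spread only. Identifiers were matched without version to GENCODE M21 (55141 of 55401 genes), a release other than that of the study.

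TPM is not a count, so log2(TPM + 1) was tested with limma-trend (limma 3.58.1, R 4.3.3) in 1 fit of all 6 libraries, two-sided, for the 14156 genes whose mean TPM reached 0.5, with Benjamini-Hochberg adjustment over all of them. A gene passed at an adjusted p under 0.05, whatever its fold. Residual degrees of freedom were 3, and fold changes of low genes are understated. The fit was tested on simulated data. The members, lists and tests were chosen with earlier results of these data known. The 10 genes were all named, and listed genes that passed were named up to 4 per list, comparison and direction by size; other names are marked, and 2 listed genes are counted but not reported here. Alternatives were pseudocounts of 0.1 and 5, other filters, scalings and fits, a replicate block, leaving out each library, and the study's thresholds. Removal of spline trends on GC content and length was chosen after seeing the data.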

Additional observations from a re-analysis of the deposited data

Results flagged for a closer look

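Among the 10 MuvB and DREAM genes no difference between the effects of the constructs passed the test of that difference. It passed for Rbbp4 and Rbbp7, the genes that the constructs express, so this outcome was set by the design. With the same controls in both effects, the difference equals the direct comparison of the lines. The effect of Rbbp4 OE on Rbbp4 exceeded that of Rbbp7 OE by 0.91 log2 units (limma adjusted p = 0.00192), with 271 TPM ± 0.87 in Rbbp4 OE and 143 TPM ± 0.89 in Rbbp7 OE (SD, n = 2). For Rbbp7 the corresponding difference was -1.79 (limma adjusted p = 8.31e-05), with 213 TPM ± 7.0 in Rbbp4 OE and 736 TPM ± 16 in Rbbp7 OE (SD, n = 2).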

How the results depend on the processing

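In Rbbp4 OE against control 3 members passed, and 1 did with a pseudocount of 5, no filter, a replicate block, 2-group fits or the GC and length correction. Without a library the count was 0 to 3, and under the study's thresholds it was 0. The assembly list went from 2 to 0 with no filter, 2-group fits or the study's thresholds, to 1 with the replicate block, and to 4 at a mean TPM of 5, with either scaling or with protein-coding genes only (0 to 3 without a library). The G2/M count of 5 became 1 with no filter, 3 with the block, and 0 with 2-group fits or the study's thresholds (0 to 6 without a library). The G1/S count of 9 became 5, 3 and 2 with no filter, 2-group fits and the study's thresholds (0 to 10 without a library). In Rbbp7 OE the member count of 1 became 0 with no filter, median-of-ratios scaling, the block, 2-group fits, the study's thresholds and without each library (0 to 0), and the G1/S count of 0 became 1 at a mean TPM of 5 and with protein-coding genes only. The cause of these changes was not tested.

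Calls over all genes in Rbbp4 OE also moved, from 466 higher and 1143 lower to 272 and 628 with the block, 57 and 101 with 2-group fits, 223 and 486 with no filter, and 35 and 12 without Rbbp4 OE replicate 2. Over all genes in Rbbp7 OE, calls went from 28 higher and 41 lower to 14 and 22 with median-of-ratios scaling. They were 5 and 4 with no filter, 6 and 3 with the block, and 1 and 0 with 2-group fits. E2f4 stayed between -0.41 and -0.40 on the log2 scale in these Rbbp7 OE fits. Samples with the same number did not deviate together (r = -0.03, 0.03 and -0.03), so the block adds no pairing. The block left E2f4 past the limit in Rbbp4 OE only.

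Signs turned only for log2 differences that had not passed. In Rbbp7 OE against control, Lin52 became -0.0008 with a pseudocount of 5, Rbl1 became 0.0113 after the GC and length correction, and Rbbp4 became 0.0040 with quantile normalization and 0.0169 after the correction. Between the lines, Lin9 became 0.0418 with quantile normalization, and Mybl2 0.0905 with median-of-ratios scaling and 0.0210 with quantile normalization. Without a library, Mybl2 in Rbbp4 OE against control ran from -0.0050 to 0.1629. In Rbbp7 OE against control the ranges were -0.3621 to 0.0281 for Lin9, -0.2810 to 0.2872 for Lin52, -0.2400 to 0.1478 for Rbl1, -0.0360 to 0.1545 for Tfdp1 and -0.2133 to 0.1516 for Foxm1. Between the lines they were -0.2629 to 0.0875 for Lin9, -0.3748 to 0.0130 for Rbl1 and -0.1086 to 0.3681 for Rbl2. Of all log2 differences of named genes over the settings, 664 kept their direction and side of the limit, 112 no longer passed, 1 newly passed and 19 changed sign.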
